A study of Sus scrofa with 6 samples.

Results

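CLU, APOA1 and APOE encode clusterin, apolipoprotein A1 and apolipoprotein E, secreted proteins that bind and carry lipids outside cells. Their transcripts were followed in porcine midbrain-like organoids (pMLOs), 3D cultures in which stem cells are patterned towards the ventral midbrain. The 3 genes were taken by symbol from the 30477 genes of the count matrices, where each symbol had 1 entry. They were chosen from what their levels did between days and between marker-positive cells in these data, so those levels are described here and carry no test.

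Apolipoproteins form the protein coat of lipoprotein particles and are the part that receptors recognise. In the brain, APOE is made mostly by astrocytes, is loaded with cholesterol through the ABC transporters of the cell membrane, and is taken up by neurons through lipoprotein receptors. Clusterin, also called apolipoprotein J, is an extracellular chaperone that binds misfolded proteins and also travels on lipoproteins. APOA1 is the main protein of high-density lipoprotein and in the adult body is made chiefly by liver and intestine.

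All organoids came from 1 porcine embryonic stem cell line, IVF_1_ pESC_FIW, and were sampled after 11, 28 and 45 days of differentiation (D11, D28, D45). Each day is represented by 2 libraries, called replicate A and replicate B. Every group had received the same patterning, with the TGF-β inhibitor SB431542, Noggin, the SHH protein SHH-C24II and the GSK3 inhibitor CHIR99021 from the start, followed by FGF8, BDNF and ascorbic acid. D28 and D45 organoids had in addition been embedded in Matrigel and kept in a maturation medium with BDNF, GDNF, ascorbic acid, db-cAMP and the Notch pathway inhibitor DAPT. Day was the only factor that differed between groups, so age in culture and the change of medium cannot be told apart, and there was no untreated group.

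Single-cell 3' libraries count transcripts as unique molecular identifiers (UMIs), 1 per captured molecule. Of 104820 barcodes, 102940 were kept, between 13870 and 21553 per library. The kept cells of a library held between 106805311 and 180034791 UMIs, and the median UMIs per cell fell between 2300.5 in D45 replicate A and 10757 in D11 replicate A. The D45 libraries were therefore the shallowest per cell, and thinned shares of cells were taken after drawing 1000 UMIs from each cell. Cells under 1000 UMIs, between 975 and 6623 per library, were left out of these shares, which thus cover between 9918 and 16289 cells per library. The labels call the cells midbrain dopaminergic neurons, and TH, the rate-limiting enzyme of dopamine synthesis, was between 11.5 and 55.1 CPM in the 6 libraries, while SLC6A3, the dopamine transporter, was at or below 2.56 CPM. Any pair of libraries shared at most 0.65% of the barcodes of the smaller one. Levels are given as counts per 1000000 UMIs (CPM) over all kept cells of a library or group. A lower CPM in whole organoids may come from fewer cells of a type or from less RNA per cell, which cannot be told apart in such sums.

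CLU (ENSSSCG00000009668) lies on the minus strand of chromosome 14 between 11336585 and 11352569, with 8 exons in its curated transcript (Sscrofa11.1, the build of the count matrices, annotated by RefSeq). APOA1 (ENSSSCG00000030921) has 4 exons on the minus strand of chromosome 9 from 44216481 to 44218360. APOE (ENSSSCG00000003088) has 3 exons on the plus strand of chromosome 6 from 51373113 to 51375333. No other annotated gene overlaps any of the 3, so their 3' reads have no overlapping partner in this annotation. The nearest genes of the list of neighbours were APOC3 at 2.9 kilobases from APOA1, TOMM40 at 3.2 kilobases from APOE and GULO at 3.7 kilobases from CLU.

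CLU was highest on D28 and lowest on D11. It stood at 293 CPM in D11 replicate A and 408 in replicate B, at 4281 and 2855 CPM on D28, and at 1865 and 1807 CPM on D45. The libraries of the 3 days did not overlap, and the spread between replicates was widest on D28 (351 ± 81.5, 3568 ± 1008 and 1836 ± 40.9 CPM on D11, D28 and D45, SD, n = 2). In the edgeR fit over the 6 libraries the log2 difference was 3.11 (standard error 0.38) for D28 against D11, -1.14 (0.36) for D45 against D28 and 1.98 (0.36) for D45 against D11. These differences are relative to the TMM scaling of that fit, which shifted log2 differences against plain CPM by -0.26 for D28 against D11, -0.15 for D45 against D28 and -0.41 for D45 against D11.

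APOA1 ran the other way, with its highest level on D11. The level was 108 and 143 CPM in the D11 libraries, 45.3 and 19.1 CPM in the D28 libraries, and 8.74 and 33.6 CPM in the D45 libraries. Both D11 libraries lay above the other 4, while D28 and D45 overlapped, because D45 replicate B lay between the replicates of D28. The day means were 126 ± 24.6, 32.2 ± 18.6 and 21.2 ± 17.6 CPM (SD, n = 2), and the log2 difference for D45 against D11 was -2.96 (standard error 0.73). Between D28 and D45 the log2 difference of -0.78 was about as large as its standard error of 0.68.

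APOE was close to absent on D11 and highest on D45. It was at 3.53 and 3.5 CPM on D11, at 57.9 and 14.5 CPM on D28, and at 323 and 495 CPM on D45. The 3 days did not overlap, although the D28 replicates lay far apart (3.52 ± 0.0197, 36.2 ± 30.7 and 409 ± 121 CPM, SD, n = 2). The log2 difference was 3.18 (standard error 0.68) for D28 against D11 and 6.46 (0.79) for D45 against D11. In D28 replicate A, COL1A1-positive cells made up 16.05% of cells against 2.9% in replicate B, and the level of APOE followed the same order in these libraries, and the part of COL1A1-positive cells in that gap was not tested.

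**Figure D1:**
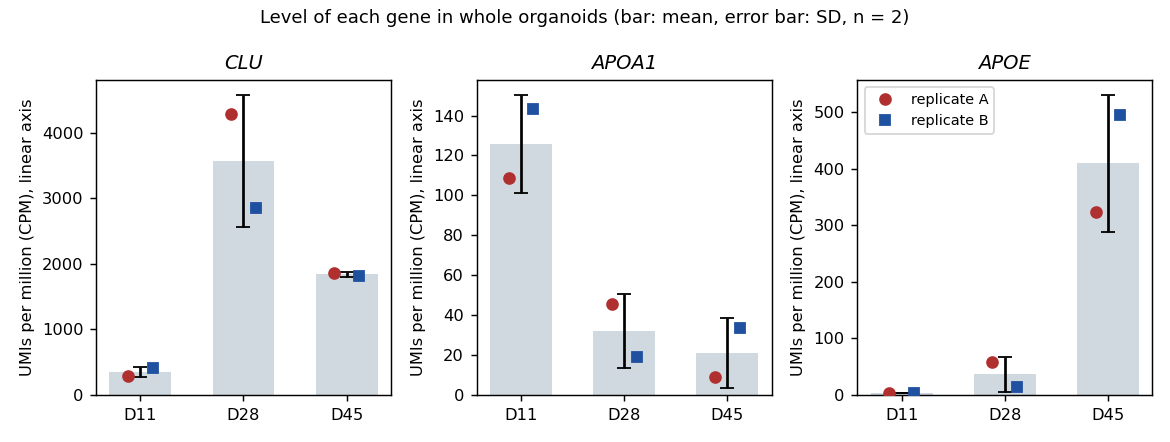
Level of CLU, APOA1 and APOE in whole organoids, in CPM on a linear axis from 0, by day. Points are single libraries, bars the mean and error bars the SD of 2 libraries. CLU peaks on D28 at 3568 CPM, APOA1 is highest on D11 at 126 CPM, and APOE is highest on D45 at 409 CPM.

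The shares of cells with a UMI were compared at equal depth. After thinning to 1000 UMIs, CLU was seen in 21.8% and 29.1% of the cells kept for thinning on D11, 66.2% and 60.8% on D28, then 51.0% and 52.4% on D45. APOA1 was seen in 7.49% and 9.89% of cells on D11, in 1.31% and 0.667% on D28, and in 0.557% and 1.67% on D45. APOE was seen in 0.328% and 0.233% of cells on D11, in 3.12% and 0.883% on D28, and in 11.9% and 20.2% on D45. CLU and APOE kept the order of days that their CPM had, and for APOA1 both later days lay below D11, but D45 replicate B was above both D28 libraries in share while it lay between them in CPM. Unthinned, the shares were larger, with CLU in 58.8% to 89.9% of cells, APOA1 in 1.81% to 33.2% and APOE in 2.37% to 43.5% over the 6 libraries. A share of cells with a UMI includes free RNA, whose part was not tested.

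The UMIs of the 3 genes were spread over cells in different ways. The 1% of cells with most CLU UMIs held 7.87% to 21.7% of all CLU UMIs of their library. For APOA1 this share was 20.005% and 19.6% on D11, but 83.4% and 82.2% on D28 and 84.3% and 78.8% on D45. The smallest set of cells that held 50% of the APOA1 UMIs numbered 661 and 1016 cells on D11, and 14, 12, 38 and 66 cells in the D28 and D45 libraries. For APOE the share was 47.2% and 53.2% on D11, the highest of the 3 genes on that day. Only 559 and 631 APOE UMIs were seen on D11, in 3.01% and 2.37% of cells. Such scarcity by itself raises the share of the top 1% of cells. On D28 (52.8% and 65.1%) and D45 (42.3% and 28.1%) the share of APOE lay between CLU and APOA1.

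**Figure D2:**
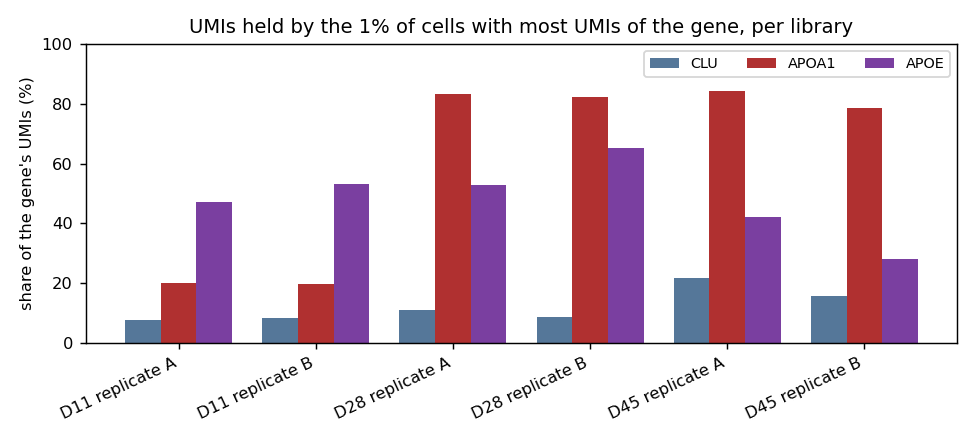
Share of the UMIs of CLU, APOA1 and APOE (%) that was held by the 1% of cells with most UMIs of that gene, for each of the 6 libraries. The APOA1 bars go from 20.005% and 19.6% on D11 to between 78.8% and 84.3% on D28 and D45.

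Marker genes were then used to read the levels within kinds of cells. A cell counted as positive with at least 1 UMI of CORIN, a protease of the embryonic floor plate, LMX1A, a transcription factor of dopaminergic progenitors, AQP4, the water channel of astrocytes, COL1A1, a collagen of fibroblasts, or STMN2, a neuronal microtubule regulator. Over the 6 libraries there were 21526 CORIN-positive, 18657 LMX1A-positive, 4239 AQP4-positive, 7714 COL1A1-positive and 58579 STMN2-positive cells. A cell could belong to several groups. The groups were checked against the other markers of each cell type, where a marker counted when it was at least 1.5 times the whole-library level in both libraries. CORIN-positive cells passed for 0 of 7 floor plate markers on D11, then 6 and 7 on the later days, and COL1A1-positive cells for 4 of 5 fibroblast markers on D11 and 5 on D28 and D45. On D11 CORIN-positive cells held 42.4% and 49.5% of all UMIs, against 6.33% and 9.85% on D45. A marker has less room to exceed the library level in a group with more of its UMIs, so these counts are not compared between days. LMX1A-positive cells passed for 2, 2 and 4 of 5 progenitor markers, and AQP4-positive cells for 2 of 5 astrocyte markers on D28 and 3 on D45. Some groups also passed for markers of another type. On D28 COL1A1-positive cells passed for 4 of 6 astrocyte markers and AQP4-positive cells for 2 of 6 fibroblast markers, and on D45 AQP4-positive cells passed for 3 of 4 ciliated cell markers. CORIN-positive cells passed for 3 of 4 ciliated cell markers on D28 and 2 on D45, and for 5 of 6 fibroblast markers on D45. LMX1A-positive cells passed for 3 of 6 choroid plexus markers on D28 and 2 on D11 and D45, and for 4 of 8 floor plate markers on D45. The part of such cells in the levels below was not tested. STMN2-positive cells passed for 6 of 6 neuronal markers on D11. On D28 and D45 they held between 71.7% and 78.4% of all UMIs. No marker could then reach 1.5 times the library level, so their 0 passing markers on these days carry no information. They made up between 68.5% and 74.8% of all cells on these days. They also included 59.3% or more of the cells of each other group. For that reason STMN2-positive is used below for its rule and not as a name for neurons.

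In CORIN-positive cells CLU stood above the rest of the organoid on every day. It was at 490.1 and 592 CPM on D11, 7859 and 5146 on D28, then 3975 and 2655 on D45, against 148 and 228, 2138 and 1392, and 1723 and 1715 CPM in the CORIN-negative cells of the same libraries. Each positive group lay above the negative group of its own library. CORIN-positive cells held 71.0% and 71.9% of all CLU UMIs on D11 and 68.8% and 70.2% on D28, with 37.4% to 49.5% of all UMIs. On D45 they held 13.5% and 14.5% of CLU UMIs with 6.33% and 9.85% of all UMIs. AQP4-positive cells were the other group with high CLU, at 6252 and 4773 CPM on D28 and at 4712 and 3767 CPM on D45.

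CLU was lower in the remaining groups but followed the same order of days in each. LMX1A-positive cells held 469 and 528 CPM on D11, 4132 and 2941 on D28, then 2037 and 2314 on D45. COL1A1-positive cells went from 131 and 109.5 CPM on D11 to 3079.8 and 2599 on D28 and 1618 and 1412 on D45. These levels depended on the gate: with at least 3 UMIs of COL1A1, CLU was at 1713 and 1679 CPM on D28 and at 903 and 419 CPM on D45, and with COL1A1 and none of the other 4 markers at 1662 and 1441 CPM on D28 and 854 and 757 CPM on D45. With at least 1 UMI, their log2 difference for D45 against D11, 3.54 (standard error 0.29), was the largest of the 4 marker groups fitted, with 2.35 (0.41) in CORIN-positive, 2.19 (0.42) in STMN2-positive and 1.66 (0.33) in LMX1A-positive cells, and the differences between groups were not tested. Cells with none of the 5 markers still held 1740.3 and 1569.5 CPM of CLU on D45, at a median of 931 and 974.5 UMIs per cell. A share of CLU UMIs in any group may be free RNA, whose part was not tested.

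APOA1 changed its place between D11 and the later days. On D11 it was highest in LMX1A-positive cells, at 241 and 253 CPM, followed by CORIN-positive cells at 176 and 199 CPM, and the libraries of these groups did not overlap. LMX1A-negative cells held 64.5 and 95.5 CPM on the same day. CORIN-positive cells carried 68.7% and 68.8% of the APOA1 UMIs of D11, with 42.4% and 49.5% of all UMIs. By D28 APOA1 was at 13.8 and 15.5 CPM in CORIN-positive and at 9.35 and 21.9 CPM in LMX1A-positive cells, and on D45 at 4.01 and 8.0 and at 12.9 and 10.3 CPM. The log2 differences for D45 against D11 were -5.15 (standard error 0.35) and -4.90 (0.36).

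COL1A1-positive cells did not follow that course in CPM. Their APOA1 was at 75.4 and 111 CPM on D11, at 134 and 135 CPM on D28 and at 33.0 and 91.9 CPM on D45. The D28 libraries lay just above those of D11, and the D45 libraries overlapped with D11, with a log2 difference of -0.67 (standard error 0.45) for D45 against D11. COL1A1-negative cells held 18.0 and 13.4 CPM on D28 and 5.36 and 7.44 CPM on D45, below the COL1A1-positive cells of the same library each time. COL1A1-positive cells carried 69.6% and 33.3% of the APOA1 UMIs on D28 and 46.2% and 84.7% on D45, with 23.6%, 4.69%, 12.2% and 31.0% of all UMIs. The share of COL1A1-positive cells with APOA1 went the other way: after thinning, APOA1 was seen in 6.44% and 10.1% of them on D11, 3.02% and 4.94% on D28, then 2.63% and 5.51% on D45. As a mean over cells, in which each cell counts equally, their APOA1 was at 62.7 and 91.8 CPM on D11 and at 73.9 and 115 CPM on D28, so that the days overlapped. In cells positive for COL1A1 and none of the other 4 markers, APOA1 was at 61.7 and 78.6 CPM on D11, at 232 and 313 CPM on D28 and at 38.6 and 149 CPM on D45, a wider gap between D28 and D11 than in all COL1A1-positive cells.

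The cells with at least 10 APOA1 UMIs showed the same change of place, chosen here by APOA1 itself and described with no test. There were 404 and 595 such cells on D11, 61 and 28 on D28, then 20 and 125 on D45. On D11, 73.5% and 76.8% of them had a UMI of CORIN and 68.3% and 70.6% one of LMX1A, while 1.24% and 0.672% had one of COL1A1. On D28 and D45, 70.5%, 42.9%, 65.0% and 93.6% had a UMI of COL1A1. Of the other fibroblast markers, COL1A2 was above the other cells in these 4 libraries, COL3A1 was below them on D28 (237 and 3.36 against 246 and 40.1 CPM) and above them on D45 (873 and 1291 against 166 and 548 CPM), while LUM, DCN and PDGFRA were below the other cells in all 4 libraries, with LUM at 2.71 and 17.5 against 49.5 and 79.0 CPM and DCN at 0 and 13.3 against 27.6 and 104 CPM on D45. The genes with the highest fold over the other cells in both D11 libraries were SCIN, which cuts actin filaments, CALCRL, a receptor for adrenomedullin and related peptides, CTSC, a lysosomal protease, LRRTM3, a synaptic membrane protein, and RSPO2, a WNT agonist. OLFML2A, a secreted matrix protein, was among the 8 genes with the highest fold on both D28 and D45, at 163 and 367 CPM against 2.80 and 4.76 CPM in other cells on D28 and at 274 and 841 against 20.8 and 23.9 CPM on D45. CCL2, a chemokine, was also among those 8 on both days. Of the 6 oligodendrocyte lineage markers, SOX10, a factor of neural crest and glia, was above the other cells in all 4 libraries, at 53.9, 85.8, 86.8 and 267 CPM against 2.76, 10.5, 64.1 and 52.9 CPM. OLIG2 was at 0 in these 4, and on D45 OLIG1 (2.71 and 2.80 against 81.1 and 69.9 CPM) and MBP (21.7 and 49.8 against 385 and 272 CPM) were below the other cells. Of the 6 astrocyte markers, GFAP was above the other cells on D28, at 150 and 47.1 against 6.68 and 3.80 CPM. On D45 it was at 100 and 94.6 against 92.0 and 109 CPM. SLC1A3 was at 660, 119, 637 and 149 CPM against 76.2, 78.6, 237 and 222 CPM in these 4 libraries. On D28, AQP4 was at 5.10 and 1.68 against 2.38 and 0.933 CPM and GJA1 at 32.1 and 21.9 against 12.2 and 21.3 CPM. In replicate B, AQP4 was thus near the floor and the gap of GJA1 was small. Both genes were below the other cells on D45. SLC1A2 was below them in all 4, and ALDH1L1 was at or below 1.68 CPM.

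Markers of tissues that make APOA1 in the adult body were low in these cells and in the other cells. AFP and SOX17 were at 0 in the cells with at least 10 APOA1 UMIs of all 6 libraries, and APOA2 was at 0 in 5 of them and at 0.154 CPM in D11 replicate A. GATA4 was at 0 in 5 of them and ALB, at 5.1 to 13.3 CPM, was below the other cells of every library. AMBP was at 0 in all 6. In the other cells AFP, SOX17 and APOA2 were at or below 0.0398, 0.0319 and 0.0479 CPM and AMBP and GATA4 at or below 0.239 and 0.195 CPM, so that 0 UMIs in so few cells does not set the groups apart. FGB and TF, also transcripts of the liver, reached 5.71 and 13.5 CPM at most, beside 6.0 and 7.52 CPM in the other cells of the same libraries. Of the 9 microglia and macrophage markers, between 1 and 3 were above the other cells in a library. PTPRC was at 78.7 against 33.4 CPM in D28 replicate A, and C1QA at 2.80 against 0.0717 CPM in D45 replicate B. TREM2 and C1QC were at 0, but were at or below 0.0117 CPM in the other cells too. Depth was higher in these cells, with medians of 9959 to 22297 UMIs, and its part in their selection was not tested.

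APOE was highest in AQP4-positive cells on D45, while on D28 AQP4-positive and COL1A1-positive cells overlapped. AQP4-positive cells held 219 and 82.5 CPM on D28 and 1009 and 1121 CPM on D45, against 54.5 and 13.9 and 190.0 and 333 CPM in AQP4-negative cells. Each positive group lay above its own negative group, and on D45 AQP4-positive cells carried 50.8% and 46.5% of all APOE UMIs with 16.3% and 20.5% of all UMIs. On D11 only 6 and 2 cells had a UMI of AQP4, so no level was read. COL1A1-positive cells held 5.89 and 3.94 CPM on D11, 188 and 117 on D28, then 678 and 729 on D45, so that in D28 replicate B they lay above the AQP4-positive cells.

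In CORIN-positive cells APOE went from 2.03 and 1.95 CPM on D11, below the CORIN-negative cells, to 26.9 and 10.0 CPM on D28 and to 614 and 718 CPM on D45. The log2 difference for D45 against D11 was 8.14 (standard error 0.65), and it was 7.03 (0.44) in COL1A1-positive, 6.39 (0.59) in LMX1A-positive and 6.39 (0.78) in STMN2-positive cells. The CORIN-positive cells of D45 numbered 535 and 892, and 5 of 6 fibroblast markers were at least 1.5 times the library level in both of these groups. Of these cells, 19.3% and 49.7% also had a UMI of COL1A1. With CORIN and none of the other 4 markers, 77 and 104 cells remained on D45, and their APOE was at 284 and 224 CPM, again above the 2.0 and 1.41 CPM of D11. That was below the CORIN-negative cells of the same libraries, at 304 and 471 CPM. Cells with none of the 5 markers were at 227 and 283 CPM. LMX1A-positive cells were at 300.1 and 463 CPM of APOE on D45, and cells with STMN2 alone at 113 and 158 CPM.

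At equal depth the order of groups on D45 was the same as in CPM in replicate A. In replicate B the CORIN-positive cells lay just above the COL1A1-positive cells, the reverse of their order in CPM. After thinning, 32.6% and 37.8% of AQP4-positive, 26.1% and 31.9% of COL1A1-positive, 20.6% and 32.2% of CORIN-positive, 11.5% and 21.2% of LMX1A-positive and 10.4% and 18.0% of STMN2-positive cells had a UMI of APOE. The AQP4-positive libraries lay above the COL1A1-positive ones, while each other neighbouring pair in this order overlapped. Unthinned, the shares were 56.2% and 67.6% in AQP4-positive cells at medians of 9394 and 10901 UMIs and 25.5% and 44.6% in STMN2-positive cells at 3687.5 and 5778 UMIs. Cells with none of the 5 markers held 227 and 283 CPM of APOE on D45, and the part of free RNA in the lower groups was not tested.

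**Figure D3:**
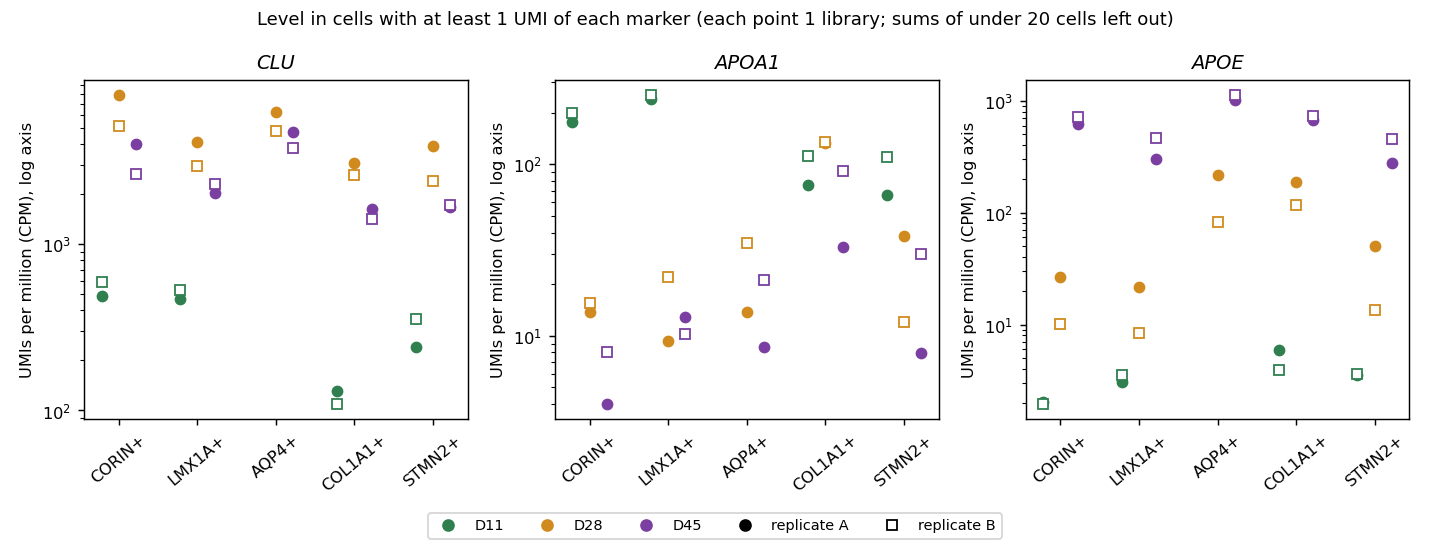
Level of CLU, APOA1 and APOE in cells with at least 1 UMI of each of 5 markers, in CPM on a log axis, 1 point per library, coloured by day. APOA1 on D11 is highest in LMX1A-positive cells (241 and 253 CPM), and APOE on D45 is highest in AQP4-positive cells (1009 and 1121 CPM). Groups of under 20 cells are left out.

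Cells positive for AQP4 and not STMN2 were compared with cells positive for STMN2 and not AQP4 within the 4 libraries of D28 and D45, with the library as a block. The AQP4-positive side held 36 and 20 cells in the D28 libraries. APOE was higher in the AQP4-positive cells by 2.62 log2 units (standard error 0.17) and CLU by 1.46 (0.23). APOA1 differed by -0.25 (0.20), little more than its standard error.

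The transcripts were also counted together in single cells. In thinned D45 cells, APOE was found in 16.3% and 23.9% of CLU-positive cells and in 7.3% and 15.99% of CLU-negative cells. On D28 the order was not the same in both libraries, with 2.42% against 4.47% in replicate A and 0.919% against 0.829% in replicate B. On D11, APOA1 was found in 9.88% and 11.5% of CLU-positive and in 6.82% and 9.21% of CLU-negative cells, the higher value in both libraries. On D28, 77 of 130 and 47 of 80 APOA1-positive cells also had CLU, and on D45 35 of 75 and 61 of 226. These were 59.2%, 58.75%, 46.7% and 27.0% of APOA1-positive cells, against 66.3%, 60.8%, 51.0% and 52.9% of APOA1-negative cells, the lower value in each of these 4 libraries, and the difference was not tested. Cells with both APOA1 and APOE numbered 3, 4, 12, 2, 18 and 33 in the 6 libraries in order of day.

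The genes whose levels were most alike were sought over the 28 sums of marker-positive cells by library, among 7301 genes with a mean of at least 20 CPM. The sums share libraries and cells, so the correlations are descriptions. APOE was most like GFAP, the intermediate filament of astrocytes (Pearson's r 0.98), OGN, a small proteoglycan of connective tissue (0.979), SPARCL1, a matrix protein secreted by astrocytes (0.978), S100A6, a calcium-binding protein (0.97), and MATN2, a matrix protein (0.969). CLU was most like PIGT (0.965), a subunit of the enzyme that attaches GPI anchors, PLD3 (0.964), a lysosomal nuclease, LGALS3BP (0.959), a secreted glycoprotein, AK1 (0.958), an adenylate kinase, and RASSF9 (0.957). APOA1 was most like PDE5A (0.860), a cGMP phosphodiesterase, RBPMS (0.848), an RNA-binding protein, DUSP6 (0.838), a phosphatase of the ERK pathway, ADAM12 (0.837), a metalloprotease, and PRICKLE1 (0.836), of planar cell polarity. Between the members, r was 0.601 for CLU and APOE, -0.663 for CLU and APOA1 and -0.58 for APOA1 and APOE. Over the 26 sums of cells with 1 marker alone, SPARCL1 for APOE and LGALS3BP, RASSF9 and PIGT for CLU stayed among the 5 most alike, and none of the 5 for APOA1 did.

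Genes of 6 lists were tested between days in whole organoids with edgeR's quasi-likelihood test and Benjamini-Hochberg adjustment over 22192 genes. The lists hold other secreted apolipoproteins, receptors, genes of lipid export, remodelling and uptake, transcriptional regulators, and extracellular chaperones and complement regulators. They also hold chromosomal neighbours of the members, listed by position and not by function. Of the lists, 67 genes were tested. For D28 against D11, 23 of the 67 passed, 11 higher and 12 lower on D28, a share of 34.3% beside 23.1% of all genes (12.5% higher and 10.6% lower). For D45 against D11, 26 passed, 12 higher and 14 lower, 38.8% beside 34.6% of all genes (17.3% higher and 17.4% lower). For D45 against D28, 10 passed, 3 higher and 7 lower, 14.9% beside 9.40% of all genes (4.47% higher and 4.93% lower). No test set the lists against the other genes, and what follows describes single genes. Leaving out 1 library gave 5 without D11 replicate A, 6 without D11 replicate B and 36 without D28 replicate B for D28 against D11. For D45 against D11 it gave 12 without any 1 of the D11 and D45 libraries, 42 without D28 replicate A and 41 without D28 replicate B. For D45 against D28 it gave 0 without D45 replicate A in edgeR, where 15 list genes had an unadjusted p under 0.05 and DESeq2 was not run, 2 without D45 replicate B, 4 without either D11 library, and 22 and 34 without D28 replicate A and B. The lone library of a day is then assumed to vary like the others.

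Among the receptors, 6 of 15 tested passed for D28 against D11, 1 higher and 5 lower, beside 23.1% of all genes tested. LRP2, also called megalin, which takes up APOE, APOA1 and clusterin, was at 42.8 and 27.1 CPM on D11, 4.48 and 7.67 on D28, then 11.2 and 8.27 on D45. It fell by 2.81 on the log2 scale by D28 (standard error 0.30, adjusted p = 0.0017) and was also lower on D45 than on D11 (-2.25, 0.30, adjusted p = 0.0019). SCARB1, the HDL receptor, was at 36.8 and 30.6 CPM on D11, 12.6 and 11.9 on D28, then 33.0 and 28.5 on D45, lower on D28 than on either other day (-1.71 against D11, adjusted p = 0.0018, and 1.17 for D45 against D28, adjusted p = 0.018). LRP1B, a large lipoprotein receptor, rose by 1.00 on D28 (adjusted p = 0.022) and fell by 1.32 from D28 to D45 (adjusted p = 0.022).

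VLDLR, which binds APOE and also reelin, was at 14.0 and 13.5 CPM on D11, 18.0 and 33.6 on D28, then 55.2 and 48.9 on D45, and rose by 1.51 by D45 (standard error 0.23, adjusted p = 0.0036). For D45 against D11, 5 of 15 receptors tested passed, beside 34.6% of all genes, and VLDLR was the only 1 of them that rose. CD36, a scavenger receptor, was at 84.9 and 93.6 CPM on D11, 105 and 147 on D28, then 18.1 and 25.6 on D45, and fell by 2.43 against D11 (adjusted p = 7.0e-04). MEGF10, an engulfment receptor of astrocytes, fell on D28 by 1.23 (adjusted p = 0.016) and was lower on D45 by -1.17 (adjusted p = 0.012), and LSR, which takes up lipoproteins, was lower on D45 by -1.25 (adjusted p = 0.028). LRP8, the other brain receptor for APOE, did not pass for D45 against D11 (-0.26, adjusted p = 0.30). The calls of LRP2, SCARB1 on D28, and VLDLR and CD36 on D45 held in all 6 fits that left out 1 library. The call of MEGF10 on D28 was lost without D11 replicate A (highest adjusted p 0.12) and that of LRP1B on D28 without either D11 or either D45 library (0.24). For D45 against D28, the calls of SCARB1 and LRP1B were lost without any 1 of the D11 and D45 libraries (0.15 and 0.20). On D45 against D11, MEGF10 was lost without D11 replicate A or either D45 library (0.099) and LSR without any 1 of those 4 (0.25).

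The cholesterol exporters ABCA1 and ABCG1 were higher on the later days. ABCA1, which loads lipid onto APOE and APOA1, was at 18.03 and 15.03 CPM on D11, 35.3 and 55.4 on D28, then 76.5 and 84.5 on D45, and was higher on D28 by 1.18 (standard error 0.20, adjusted p = 0.0082) and on D45 by 1.88 (0.20, adjusted p = 9.3e-04). ABCG1, its partner in the same step, was higher by 1.12 on D28 (adjusted p = 0.023) and 1.25 on D45 (adjusted p = 0.010). LPL, the lipase that frees fatty acids from lipoproteins, was at 0.897 and 0.833 CPM on D11 and 6.03 and 4.79 on D45 and rose by 2.23 (adjusted p = 0.013). LIPG, a related lipase that acts on HDL, fell by 2.30 against D11 (adjusted p = 0.0014), from 7.41 and 7.49 to 2.23 and 1.79 CPM. MYLIP, a ligase that marks lipoprotein receptors for breakdown, fell by 1.63 by D28 (adjusted p = 0.0016) and MTTP, which assembles APOB particles, by 1.52 (adjusted p = 0.011). In all, 6 of 13 genes of lipid export, remodelling and uptake passed for D28 against D11, 3 in each direction, and 8 for D45 against D11, 4 in each direction. Among all genes tested, 23.1% and 34.6% passed for these contrasts. The calls of ABCA1 and LIPG on D45 and of MYLIP held without any 1 library. Those of ABCG1 and LPL on D45 were lost without any 1 of the 4 D11 and D45 libraries (highest adjusted p 0.093 and 0.089). On D28, the calls of ABCA1 and MTTP were lost without either D11 library (0.081 and 0.11), and that of ABCG1 without any 1 of those 4 (0.16). ABCG4, a relative found in neurons, did not pass for D45 against D11 (-0.31, adjusted p = 0.18).

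Of 13 other secreted apolipoproteins listed, 8 were matched by name, and most of these were scarce. APOA5, APOC1, APOC2, APOC4 and APOR were not matched, so their levels were not read. APOA2, APOA4, APOF and APOH were at or below 0.0476 CPM in every library. APOB and APOC3 were at or below 0.187 CPM, and APOM was between 1.51 and 3.95 CPM. APOD, a lipocalin made by glia and fibroblasts, was the exception, at 0.272 and 0.333 CPM on D11, 39.4 and 5.97 on D28, then 23.7 and 68.7 on D45. It rose by 6.05 by D28 (standard error 1.11, adjusted p = 0.011) and 6.86 by D45 (1.14, adjusted p = 0.0047), with 153 CPM as the mean of the COL1A1-positive cells of D45. The D45 call held with any 1 library left out, and the D28 call was lost without either D11 library (highest adjusted p 0.076). APOC3 was lower on D45 than on D11 (-2.97, adjusted p = 0.012), at 0.0822 and 0.167 CPM on D11 and 0.0253 and 0.0158 on D45, a call lost without D11 replicate B or either D45 library (highest adjusted p 0.13).

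Of 16 transcriptional regulators, 4 passed for D28 against D11, 3 of them higher, and 6 for D45 against D11, 4 of them higher. Among all genes tested, 23.1% and 34.6% passed for these contrasts. PPARA, a nuclear receptor for fatty acids, was at 4.32 and 4.37 CPM on D11, 19.7 and 17.2 on D28, then 29.5 and 29.2 on D45, a rise of 1.84 and then 2.35 against D11 (adjusted p = 0.0019 and 5.2e-04). PPARG, its relative of fat cells and macrophages, rose by 5.60 by D45 (standard error 1.39, adjusted p = 0.021), with replicates at 4.71 and 24.7 CPM. STAT3 rose by 1.16 by D45 (adjusted p = 0.0021) and NR1H2, the liver X receptor beta that drives APOE and ABCA1, by 0.87 (adjusted p = 0.0097), while NR1H3, liver X receptor alpha, did not pass (-0.27, adjusted p = 0.37). CEBPB rose by 1.23 by D28 (adjusted p = 0.0069) and fell by 1.40 from D28 to D45 (adjusted p = 0.013). SREBF1, a driver of lipid synthesis, was lower on D45 than on D28 (-0.89, adjusted p = 0.024) and than on D11 (-0.69, adjusted p = 0.017). The calls of PPARA and STAT3 against D11 on D45 held without any 1 library, and those of NR1H2 and SREBF1 were lost without any 1 D11 or D45 library (highest adjusted p 0.10 and 0.19). PPARG was lost without either D11 library or D45 replicate B (0.11), CEBPB on D28 without either D11 library (0.088) and CEBPB on D45 against D28 without either D45 library (0.13). SREBF1 on D45 against D28 was lost without any 1 D11 or D45 library (0.18).

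Among the chaperones and complement regulators, A2M, the protease trap alpha-2-macroglobulin, fell furthest. It was at 88.2 and 98.2 CPM on D11, 6.61 and 8.31 on D28, then 0.481 and 0.78 on D45, a log2 difference of -7.61 for D45 against D11 (standard error 0.32, adjusted p = 1.1e-04), and in every fit with 1 library left out it passed. A2M was highest in CORIN-positive and LMX1A-positive cells of D11, with means of 157 and 153 CPM. CFI, an inhibitor of complement, rose by 1.16 by D28 (adjusted p = 0.0098), a call lost without either D11 library (highest adjusted p 0.10). TTR, a carrier of thyroid hormone made by choroid plexus, rose by 5.08 by D28 (adjusted p = 0.030). Its level was uneven on D28, at 3.98 CPM in replicate A and 0.31 in replicate B. This call was lost without either D11 or either D45 library. A2M was the 1 gene of 8 in this list past the threshold for D45 against D11, beside 34.6% of all genes tested.

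The chromosomal neighbours of the members, listed by position, are part of the list genes counted above. Of 12 tested, 3 passed for D28 against D11, 5 for D45 against D11 and 2 for D45 against D28. Among all genes tested, 23.1%, 34.6% and 9.40% passed for these contrasts. Next to APOE, TOMM40, a mitochondrial import pore, fell by 0.55 for D45 against D11 (adjusted p = 0.038), and CLPTM1 rose by 0.48 (adjusted p = 0.046). Near CLU, PBK, a mitotic kinase and at 191.1 kilobases the farthest of the list, fell by 2.36 (adjusted p = 0.0019), and SCARA3 (-0.40, adjusted p = 0.34) and EPHX2 (0.33, adjusted p = 0.18) did not pass. Next to APOA1, SIK3 rose by 0.63 (adjusted p = 0.038), and ZPR1 did not pass (-0.44, adjusted p = 0.064). The call of PBK held with any 1 library left out, and those of TOMM40, CLPTM1 and SIK3 were lost without any 1 D11 or D45 library (highest adjusted p 0.34, 0.29 and 0.26).

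**Figure D4:**
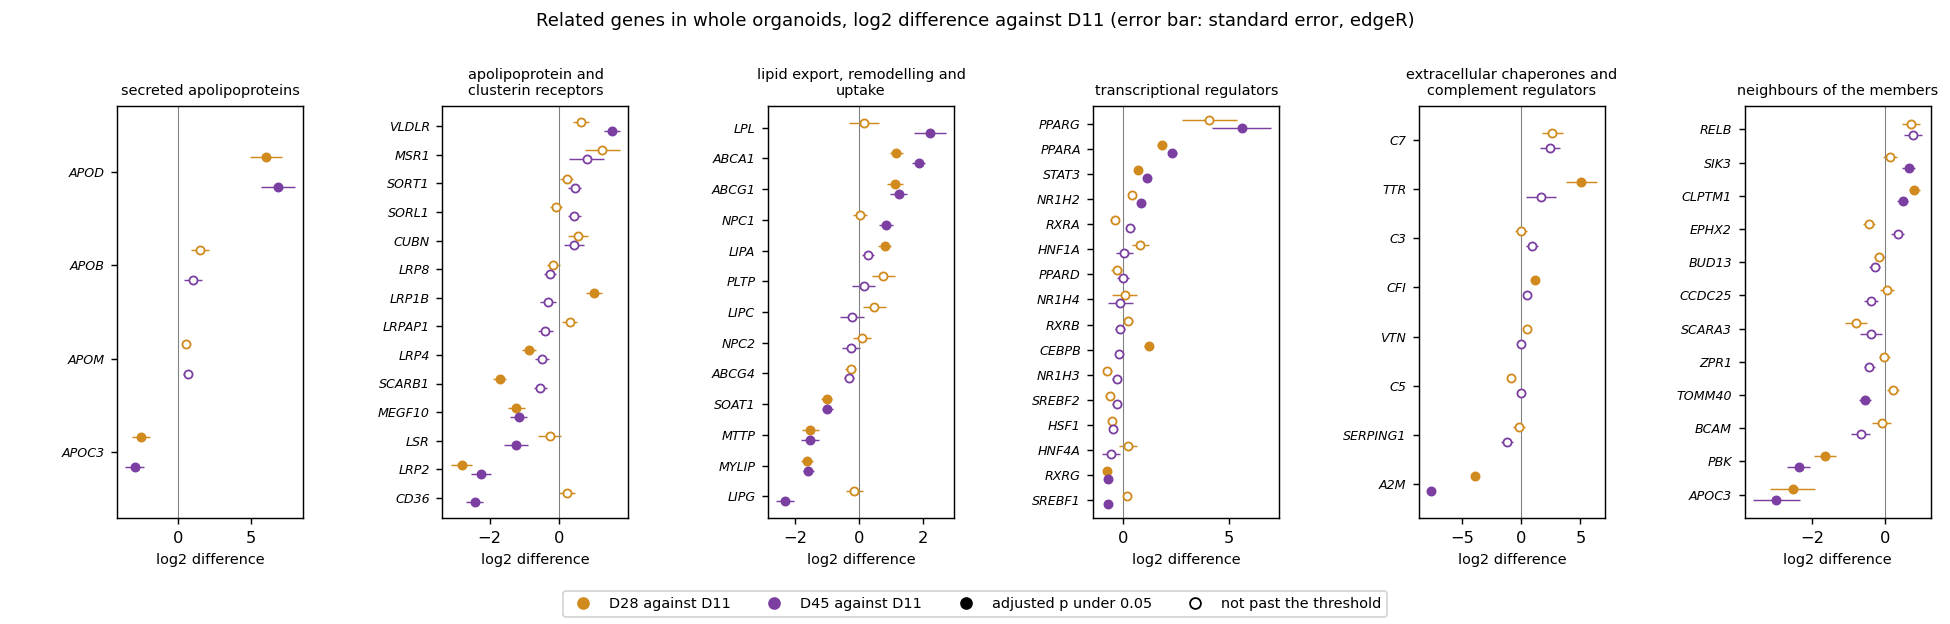
Log2 difference of D28 and D45 against D11 in whole organoids for genes of the 6 lists, with standard errors from edgeR, where filled points have an adjusted p under 0.05. ABCA1 rises to 1.88 and A2M falls to -7.61 on D45.

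Within the marker groups, 22 to 25 list genes passed for D45 against D11. They were 25 of 62 in CORIN-positive cells (18 higher and 7 lower, 40.3% beside 31.1% of all genes, 17.8% higher and 13.3% lower), 22 of 63 in LMX1A-positive cells (13 higher and 9 lower, 34.9% beside 39.6%, 19.3% higher and 20.3% lower), 22 of 58 in COL1A1-positive cells (14 higher and 8 lower, 37.9% beside 26.3%, 15.4% higher and 10.9% lower) and 23 of 67 in STMN2-positive cells (10 higher and 13 lower, 34.3% beside 27.3%, 14.2% higher and 13.0% lower). ABCA1 rose in all 4 groups, by 2.08, 1.71, 1.91 and 1.71 in that order, and so did VLDLR, APOD, PPARG, PPARA, STAT3 and NR1H2. A2M was lower in all 4, with log2 differences of -7.45, -8.49, -5.91 and -6.91. MYLIP was lower in CORIN-positive (-2.13), LMX1A-positive (-2.60) and STMN2-positive cells (-1.31) and higher in COL1A1-positive cells (0.81, adjusted p = 0.049), a call lost there without any 1 D11 or D45 library (0.26). RXRG, a retinoid X receptor, was higher in LMX1A-positive cells (1.16, adjusted p = 0.0028) and lower in STMN2-positive cells (-2.14, adjusted p = 7.4e-04), and both calls held with any 1 library left out. The differences between groups were not tested, and the groups share cells. Leaving out 1 library lowered the counts most without D11 replicate A in COL1A1-positive cells (7), without either D11 library in CORIN-positive cells (10), without D11 replicate B or D45 replicate B in LMX1A-positive cells (13) and without D11 replicate B in STMN2-positive cells (9). Among the genes higher in all 4 groups, each call was lost in at least 1 group when 1 library was left out. ABCA1 was lost in COL1A1-positive cells without D11 replicate A (highest adjusted p 0.12), and PPARA there without D11 replicate A or either D45 library (0.099). VLDLR was lost in CORIN-positive and LMX1A-positive cells without any 1 D11 or D45 library (0.086 and 0.17) and in STMN2-positive cells without either D11 library (0.067). APOD was lost in LMX1A-positive cells without D45 replicate B (0.075) and in STMN2-positive cells without either D11 library (0.064). STAT3 was lost in LMX1A-positive cells without D11 replicate B (0.051) and in STMN2-positive cells without either D11 library (0.072). PPARG was lost in COL1A1-positive and STMN2-positive cells without either D11 library, in the latter also without D45 replicate B (0.13 in both), and in LMX1A-positive cells without D45 replicate B (0.051). NR1H2 was lost in all 4 groups without D11 replicate A (0.13 at most).

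In AQP4-positive against STMN2-positive cells, 19 of 63 list genes passed, 17 higher and 2 lower in AQP4-positive cells, 30.2% beside 23.7% of all genes tested. Without either D45 library 10 passed, and without D28 replicate A 27. In the upward direction the share was 27.0% of the lists beside 10.9% of all genes, and downward 3.17% beside 12.8%. Of the 17 higher, 5 were among the 11 chromosomal neighbours tested. EPHX2, a lipid epoxide hydrolase that lies near CLU, was higher by 2.29 (standard error 0.25, adjusted p = 4.5e-05), and SCARA3, which flanks CLU on the other side, by 1.58 (0.21, adjusted p = 1.8e-04). MEGF10 was higher by 1.48 (0.15, adjusted p = 2.3e-05), and SERPING1, the C1 inhibitor of complement, by 1.38 (0.17, adjusted p = 1.2e-04). PLTP, which moves phospholipids between lipoproteins, was higher by 1.24 (adjusted p = 7.4e-04), ABCA1 by 1.13 (adjusted p = 0.0052) and SORL1, a sorting receptor, by 0.91 (adjusted p = 0.0048). NPC1, which moves cholesterol out of lysosomes, was lower by -0.65 (adjusted p = 0.039), as was the complement component C7 (-3.00, adjusted p = 0.028). The calls of EPHX2, SCARA3, MEGF10, SERPING1, PLTP and ABCA1 held when any 1 of the 4 libraries was left out. Those of SORL1, NPC1 and C7 were lost without either D45 library, and those of NPC1 and C7 also without D28 replicate B (highest adjusted p 0.091, 0.24 and 0.15).

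**Figure D5:**
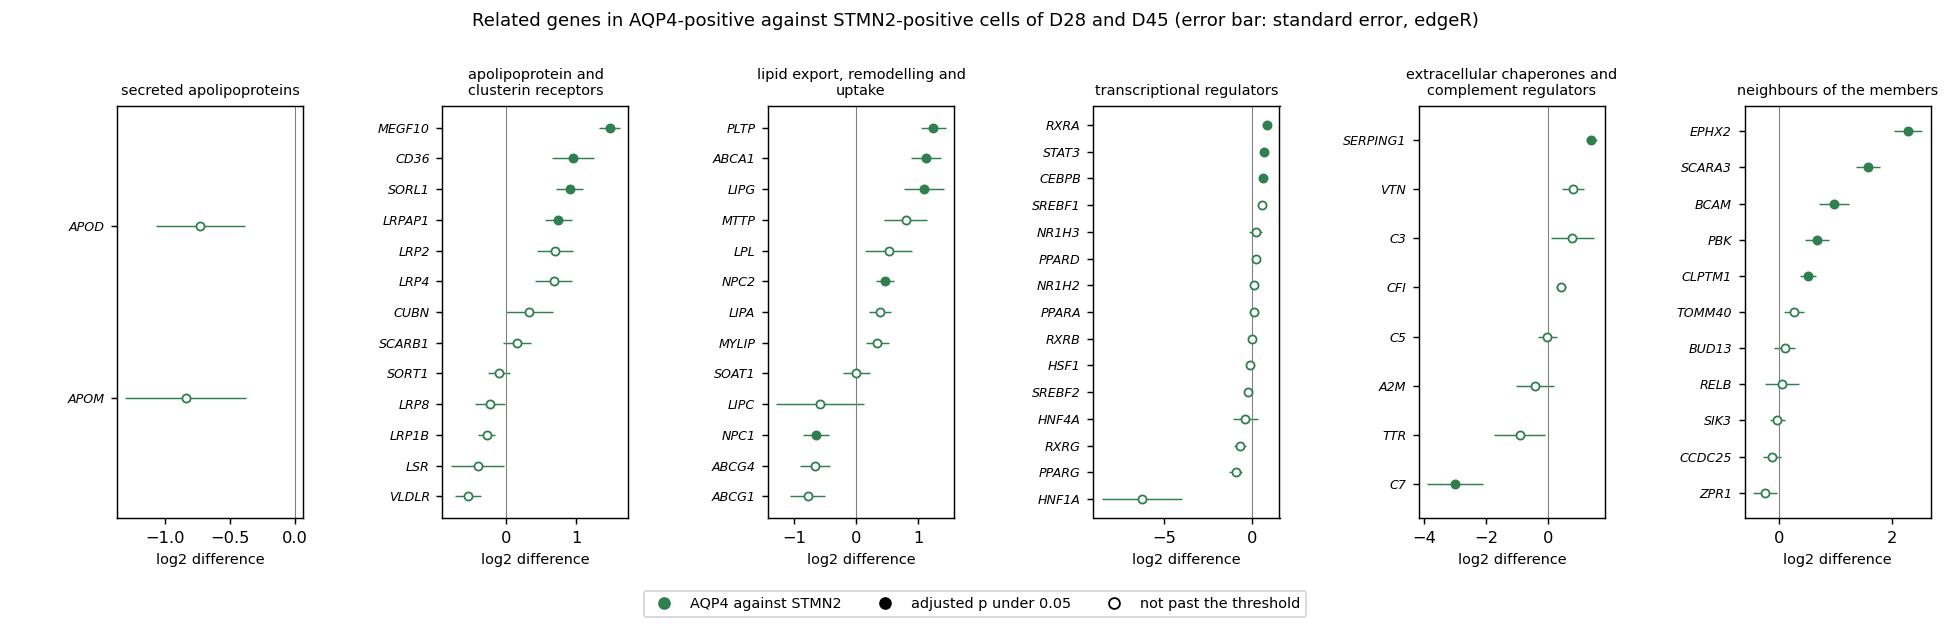
Log2 difference between AQP4-positive and STMN2-positive cells of the D28 and D45 libraries for genes of the 6 lists, with standard errors from edgeR, where filled points have an adjusted p under 0.05. EPHX2, SCARA3 and MEGF10 are the furthest to the right of the passing genes, at 2.29, 1.58 and 1.48.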

How the data were processed

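The deposited matrices hold UMI counts per gene and cell, which per the labels and the study's methods the authors made with Cell Ranger on Sscrofa11.1 from 10x Genomics 3' libraries; their notes also name Seurat 4.3.0. Both libraries of a day are called biological duplicates by the study, while the labels do not say that they came from separate cultures, so p-values measure the spread between libraries only.

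Here, cells with 200 to 7000 detected genes and at most 10% mitochondrial UMIs were kept, and no doublets were removed. Counts were summed per library and marker group and tested with edgeR 4.0.16 (TMM, filterByExpr, quasi-likelihood test, Benjamini-Hochberg adjustment, threshold 0.05) in R 4.3.3, with DESeq2 1.42.0 as an alternative. CPM intervals cover counting error only. An exact permutation test of 2 against 2 cannot go below 0.333, so none was run. The edgeR step was tested on simulated data: for D45 against D11 in whole organoids, 95% of 100 genes changed 4-fold and 17% of 100 genes changed 2-fold were recovered among 21973 genes. The changed genes were drawn only from genes above a minimum mean count, and all genes were given the same spread between libraries. These rates therefore do not cover genes with few counts or uneven replicates, such as APOC3 and TTR.

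The members and the lists were chosen with earlier results of these data known. Genes named are the members, up to 3 risers and 3 fallers of each list and contrast with others of the list by role, the 5 genes most alike, and the markers. Some list genes, such as LRP1 and APOC1, were not matched by name and were not analysed here. Values of some genes are not reported here, although these genes stay in the fits and the counts.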

Additional observations from a re-analysis of the deposited data

Results flagged for a closer look

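APOA1 moved in opposite directions between D11 and D28 in different marker groups. Every D28 library lay above every D11 library in COL1A1-positive cells, where the difference of mean log2(CPM + 1) was 0.549. The thinned share of these cells with APOA1 went the other way, at 6.44% and 10.1% on D11 and 3.02% and 4.94% on D28, and as a mean over cells the days overlapped, at 62.7 and 91.8 CPM on D11 and 73.9 and 115 CPM on D28. In cells with COL1A1 and none of the other 4 markers APOA1 was at 61.7 and 78.6 CPM on D11 and at 232 and 313 CPM on D28, a wider gap. Every D28 library lay below every D11 library in CORIN-positive cells (-3.59), LMX1A-positive cells (-4.01) and STMN2-positive cells (-1.94). The difference between the groups was not tested, the groups share cells, and COL1A1-positive cells of D11 numbered 206 and 161. For STMN2 this depended on the gate: in cells with STMN2 and none of the other 4 markers APOA1 was at 22.2 and 33.6 CPM on D11 and at 32.7 and 9.43 CPM on D28, and with at least 3 UMIs of STMN2 at 23.0 and 39.5 CPM and at 25.1 and 6.90 CPM, so that the days overlapped.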

How the results depend on the processing

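Between whole organoids, the differences of mean log2(CPM + 1) of the 3 genes kept their direction with 1 library left out, except APOA1 for D45 against D28, which ran from -1.65 to 0.181 and was above 0 without D45 replicate A. The others ran, for D28 against D11, D45 against D11 and D45 against D28 in that order, from 3.04 to 3.63, 2.17 to 2.64 and -1.22 to -0.636 for CLU, from 1.78 to 3.70, 6.17 to 6.78 and 2.77 to 4.70 for APOE, and for APOA1 from -2.64 to -1.44 and -3.69 to -1.86. Thinned to 1000 UMIs per cell, CLU for D45 against D11 was 2.00 in place of 2.41. In AQP4-positive cells, CLU for D45 against D28 was 0.145 where cells needed at least 2 UMIs of AQP4, in place of -0.375, and the cause was not tested. Of 189 values of the 3 genes in marker-positive cells under alternatives other than leaving out a library, 48 moved by more than the spread between replicates, as did 12 of 18 shares of cells. List genes past the threshold with 1 library left out numbered 5 to 36 for D28 against D11, 12 to 42 for D45 against D11, 0 to 34 for D45 against D28, 10 to 27 for AQP4-positive against STMN2-positive cells, and for D45 against D11 10 to 33 in CORIN-positive, 13 to 37 in LMX1A-positive, 7 to 31 in COL1A1-positive and 9 to 36 in STMN2-positive cells. For D45 against D28, DESeq2 called 20 and the fit with a replicate block 5, in place of 10. With the replicate block 16 were called for D28 against D11, 20 for D45 against D11, and 21, 19, 19 and 20 in CORIN-, LMX1A-, COL1A1- and STMN2-positive cells. The letters A and B were not taken as pairs, since the deviations of same-lettered libraries correlated at -0.62, 0.286 and -0.412. No value of a list gene past the threshold changed direction under the alternatives run for it, and list genes that did not pass were not followed. The median log2 difference of the list genes for AQP4-positive against STMN2-positive cells, 0.15, was -0.07 without the filter on low counts and -0.0014 without D45 replicate B. The AQP4-positive cells of D11 were too few for a fit, and with at least 2 UMIs of the marker the AQP4 comparison left out D28 replicate B, with 12 cells.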
